A study of Mus musculus with 16 samples.

Results

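The NR4A and EGR transcription factors, with the regulators that act next to them, were followed in mouse macrophages 1 hr after activation. The 10 genes, chosen by symbol, were the orphan nuclear receptors Nr4a1, Nr4a2 and Nr4a3, the zinc finger factors Egr1, Egr2 and Egr3, the EGR corepressors Nab1 and Nab2, the transcription factor Srf and the immediate early gene Ier2. Each symbol matched 1 of the 47069 gene rows. Bone marrow-derived macrophages (BMMs) from C57BL/6 mice aged 8 to 10 weeks, grown in medium conditioned by L929 cells, were primed overnight with IFNγ at 10 ng/mL. All of them then received LPS at 100 ng/mL together with IgG-opsonized ovalbumin (LPS/ICs) for 1 hr. The GSI group was given DAPT at 25 μM, a γ-secretase inhibitor that blocks the cleavage of Notch receptors but also of other γ-secretase substrates, and the control group was given its vehicle, DMSO at 0.01%. Both groups were thus primed and activated, and resting cells were not analysed here, so the values show a difference at 1 hr of activation and not an induction. The labels give 2 replicates per group and do not say whether they came from separate mice or cultures, so that p-values measure only the spread between these samples.

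Immediate early genes are transcribed within minutes of a stimulus from factors that the cell already holds. ERK signaling can act through serum response factor (SRF) and its ELK partners on EGR promoters. Signals from cAMP and calcium can act through CREB on NR4A promoters. NR4A receptors bind DNA without a known hormone and restrain inflammatory genes in macrophages, EGR factors bind GC-rich sites, and NAB proteins bind EGR factors and limit their activity.

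The promoter sequences of the NR4A genes are shown first, and whether they bear on the changes with GSI was not tested. RefSeq windows of 300 bases (250 before and 50 after each start, GRCm38.p6, the same coordinates as mm10) were given for 7 of the 10 genes. Egr1, Egr3 and Ier2 had no window. The searched motifs were TGACG (the core of the CREB site), the full palindrome TGACGTCA, the CArG box bound by SRF, the EGR sites GCGTGGGCG and GCGGGGGCG, the NR4A site AAAGGTCA, and TGGGAA, the core bound by the Notch partner RBPJ. Both strands were read, and the motifs were chosen with the sequences in view. TGACG lies inside TGACGTCA on each strand. The capitals below mark TGACG, or CGTCA where it lies on the other strand. Each stretch is written 5′ to 3′ along the gene. The Nr4a1 stretch is chr15:101266596-101266825 on the plus strand, within the annotated span of the gene but outside its exons. The Nr4a2 stretch is chr2:57124094-57124213 on the minus strand, upstream of the annotated gene. The Nr4a3 stretch is chr4:48045055-48045166 on the plus strand, and its last 14 bases lie in an exon of Nr4a3.
Nr4a1: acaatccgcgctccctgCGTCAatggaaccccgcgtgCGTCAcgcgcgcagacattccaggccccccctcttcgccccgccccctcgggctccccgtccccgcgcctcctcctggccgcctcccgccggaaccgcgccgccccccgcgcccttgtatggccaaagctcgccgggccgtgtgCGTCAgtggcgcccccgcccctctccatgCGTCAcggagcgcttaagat
Nr4a2: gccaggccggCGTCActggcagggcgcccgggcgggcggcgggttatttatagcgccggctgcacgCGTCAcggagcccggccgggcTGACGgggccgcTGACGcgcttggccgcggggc
Nr4a3: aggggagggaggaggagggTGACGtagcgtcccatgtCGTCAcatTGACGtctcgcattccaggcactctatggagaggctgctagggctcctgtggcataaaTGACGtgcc
Each of the 3 windows held 4 copies of TGACG, a number reached by 0.2313% of all 32851 windows, whatever their base composition. At least 1 copy stood in 20.81% of all windows, and TGACG was not particular to the NR4A genes, with 2 copies in each of 3 overlapping Egr2 windows and 1 copy each in Srf and Nab1.

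The second pair of sequences shows where SRF sites stood in Srf itself and in Egr2, with the CArG box in capitals. The Srf stretch is chr17:46556203-46556262 on the minus strand, upstream of the annotated gene. The Egr2 stretch is chr10:67537770-67537829 on the plus strand, within the annotated span of the gene but outside its exons.
Srf: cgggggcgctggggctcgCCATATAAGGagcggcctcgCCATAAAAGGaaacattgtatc
Egr2: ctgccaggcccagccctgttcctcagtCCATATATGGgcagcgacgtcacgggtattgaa
The window of Srf held 2 CArG boxes, as did 0.01826% of all windows, and 4 of the 5 Egr2 windows held 1, where 1.629% of all windows held at least 1. Of those 4 windows 3 overlap and share the box shown, so that they hold 2 different boxes. The map of motif positions also shows EGR sites in Nab1, with 2 copies of GCGTGGGCG (0.02131% of all windows had at least 2) and 1 of GCGGGGGCG. GCGGGGGCG was found once in Nr4a1 and once in Srf (2.907% of all windows had at least 1). TGGGAA was found only in the Nab1 window among the windows of these genes, with 1 copy, and in 25.56% of all windows. TGACGTCA and AAAGGTCA were found in none of the windows of these genes, against 1.79% and 1.507% of all windows, and the Nab2 window held none of the motifs. These matches describe letters in a window and do not show binding.

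**Figure D1:**
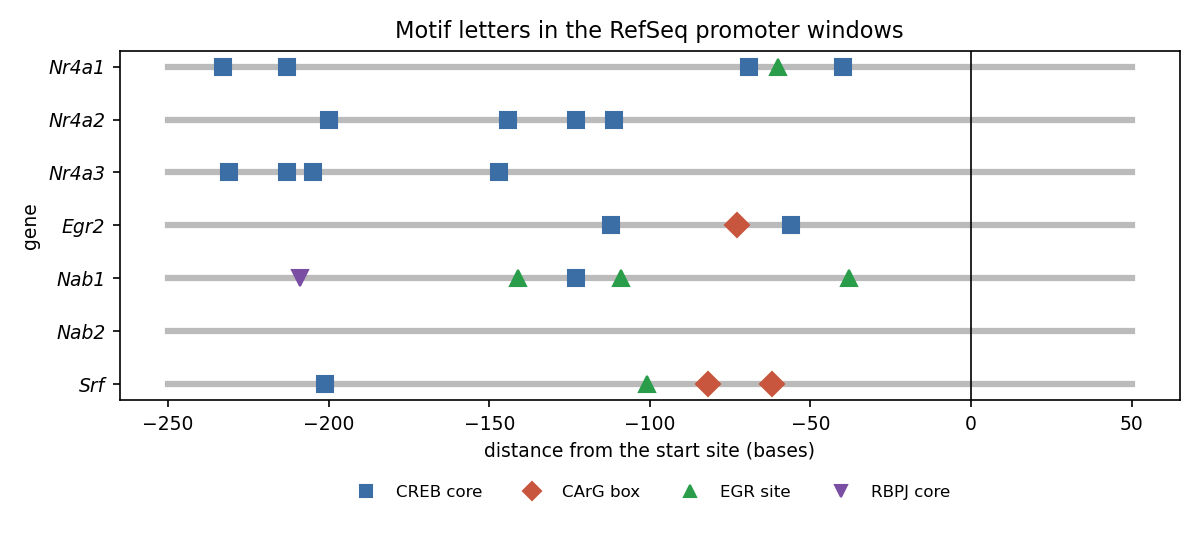
Positions of motif letters in the RefSeq promoter window of 7 genes; the x axis is the distance from the start site in bases, grey bars are the windows, and each symbol is 1 match on either strand (squares, TGACG; diamonds, CArG box; upward triangles, the 2 EGR sites; downward triangle, TGGGAA). Nr4a1, Nr4a2 and Nr4a3 each carry 4 squares, all before the start, and the only diamonds are the 2 of Srf and the 1 of Egr2, for which 1 of 5 windows is drawn.

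Each replicate was deposited as 4 columns, taken as sequencing runs and summed to 1 library, and the 4 libraries held 42694655 to 56932059 counts. Values are given as CPM, the count of a gene scaled to a library of 1e6 counts after TMM normalization, and a count of 3 was worth 0.0527 to 0.0703 CPM. Of 10 macrophage markers all were detected, and their summed level was 12720 to 12937 CPM with DMSO and 9929 to 10835 CPM with GSI, with 7 lower, 1 higher (Mertk) and 2 not past the threshold, against 21.9% lower and 19.0% higher of all tested genes. The 7 dendritic cell markers summed to 179 to 186 CPM with DMSO and 113 to 115 CPM with GSI, nearly all of it Clec9a, while Cd209a and Siglech were at 0 in every library. T and NK cell markers summed to 1.02 to 1.21 CPM with DMSO and 2.17 to 2.75 CPM with GSI, nearly all of it Lck, with Cd3g and Ncr1 at 0. Neutrophil markers stayed at or below 1.44 CPM in every library with Elane and Prtn3 at 0, B cell markers at or below 0.538 CPM, fibroblast markers at or below 0.209 CPM, and erythroid and mast cell markers at or below 0.0405 CPM with 6 of 7 genes at 0. The part of these markers in the results below was not tested. In bulk RNA, fewer cells of a type and less RNA per cell cannot be told apart.

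All 10 genes passed the filter on low counts and entered edgeR's quasi-likelihood fit, with p-values adjusted over 13211 genes (FDR). With GSI, 6 of the 10 were lower at an FDR under 0.05 (Nr4a1, Nr4a2, Nr4a3, Egr3, Nab2 and Srf), where 21.9% of all tested genes were lower. Egr1 and Ier2 were higher, where 19.0% of all tested genes were higher, and Egr2 and Nab1 did not pass. With the further requirement of a log2 fold change beyond 1.5 in size, Nr4a3 was the only member left on the lower side, where 2.17% of all tested genes passed, and 0 were left on the higher side (0.742% of all tested genes), with edgeR and with DESeq2 alike. The 2 groups did not overlap for 7 genes that were lower and 2 that were higher, against 34.8% and 35.8% of all tested genes. The median log2 fold change was -0.48 over the 10 genes and 0.01 over all genes tested.

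**Figure D2:**
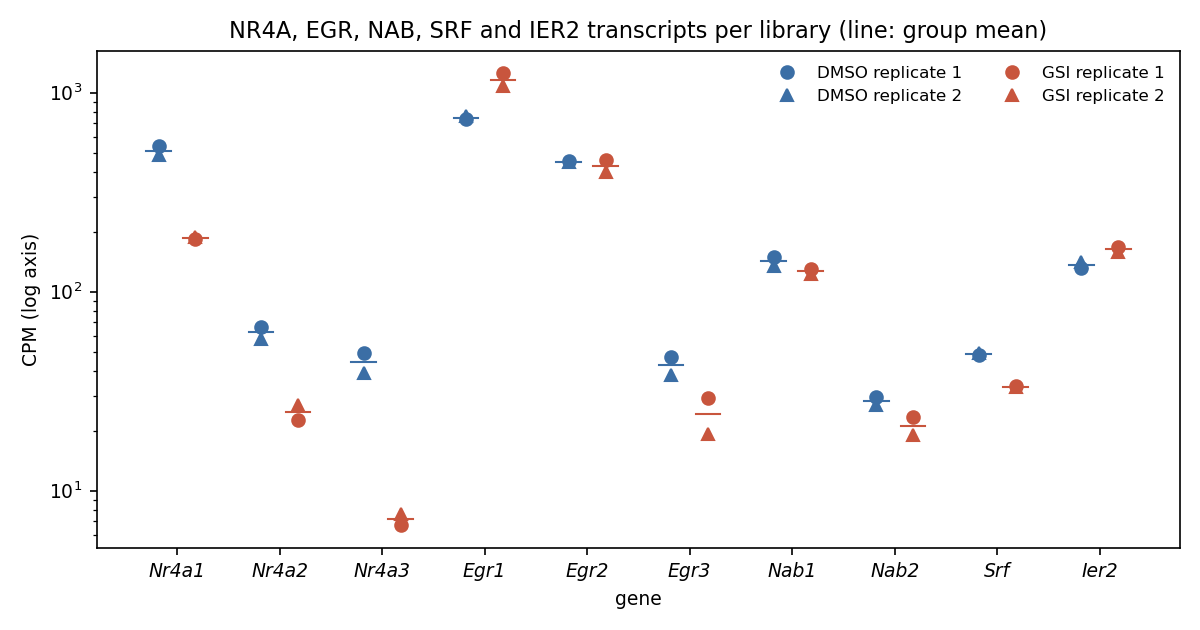
CPM of the 10 genes on a log axis in each of the 4 libraries (blue, DMSO; red, GSI; circles, replicate 1; triangles, replicate 2; lines, group means). The red symbols of Nr4a1, Nr4a2 and Nr4a3 lie far below the blue ones, those of Egr1 and Ier2 above, and those of Egr2 overlap with them.

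Nr4a1 (Nur77; ENSMUSG00000023034, chr15:101254269-101274795, plus strand) was the most abundant receptor of its family per length. It stood at 537 and 485 CPM in the 2 DMSO libraries and at 184 and 187 CPM in the 2 GSI libraries. Both GSI libraries lay far below both DMSO libraries and differed little from each other. The GSI level was 36.3% of the DMSO level, a log2 fold change of -1.46 ± 0.07 (SE, n = 2 libraries per group, edgeR FDR 9.47e-12). Without DMSO replicate 2 the log2 fold change was -1.54, and Nr4a1 then also passed the stricter threshold.

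Nr4a2 (Nurr1; ENSMUSG00000026826, chr2:57106830-57124003, minus strand) stood at 66.7 and 58.0 CPM with DMSO and at 22.6 and 26.8 CPM with GSI. The groups were well apart, although the libraries of each group differed more, relative to their mean, than for Nr4a1. The log2 fold change was -1.33 ± 0.09 (SE, edgeR FDR 4.50e-10), or 39.7% of the DMSO level.

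Nr4a3 (Nor1; ENSMUSG00000028341, chr4:48045153-48086447, plus strand) changed the most of the 10 genes. It stood at 49.1 and 39.2 CPM with DMSO and at 6.70 and 7.65 CPM with GSI. The counts behind these levels were 2113 and 2226 with DMSO and 324 and 378 with GSI, so that the lower level was still well measured. Single runs, which repeat the same library and add no replicates, ranged from 6.19 to 9.23 CPM with GSI and from 38.1 to 52.8 CPM with DMSO. The log2 fold change was -2.62 ± 0.11 (SE, edgeR FDR 4.36e-13) and lay between -2.78 and -2.45 when any 1 library was left out. Among all genes tested, 0.939% had a more negative log2 fold change than Nr4a3, against 2.24% for Nr4a1 and 2.63% for Nr4a2.

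Within the NR4A family the total fell while the proportions shifted mainly for the rarest receptor. Divided by exon length, the 3 receptors summed to 178 and 159 CPM per kb with DMSO and to 59.0 and 61.3 CPM per kb with GSI. Nr4a1 made up 86.1% and 86.9% of that sum with DMSO and 88.7% and 87.1% with GSI. Nr4a3 made up 4.61% and 4.12% with DMSO and 1.90% and 2.09% with GSI. The count of Nr4a3 per count of Nr4a1 in the same library stood at 0.0913 and 0.0809 under DMSO and at 0.0365 and 0.0408 under GSI, with no overlap between the groups. The count of Nr4a2 per count of Nr4a1 did overlap, with 0.124 and 0.120 with DMSO and 0.123 and 0.143 with GSI. With 2 libraries against 2, an exact permutation test of a ratio cannot go below a two-sided p of 0.3333, so the ratios are given without a test.

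**Figure D3:**
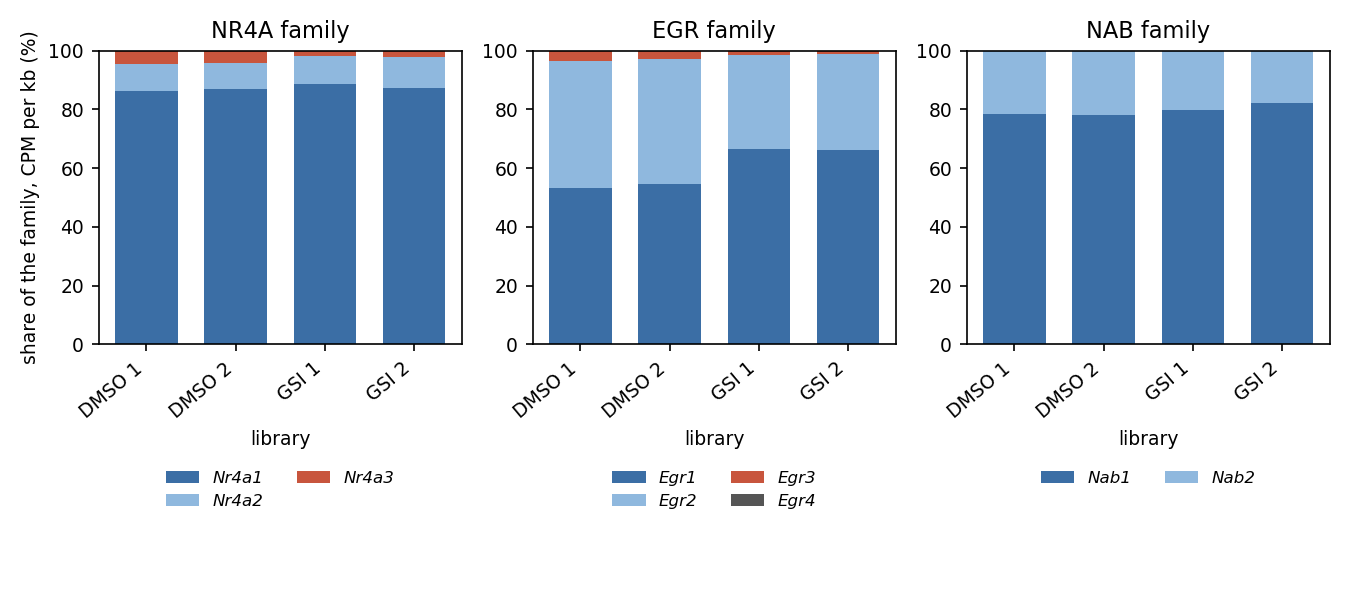
Share of each gene in its family in percent, from CPM per kb of exon, in each of the 4 libraries, with Egr4 added to the EGR family. The Nr4a3 segment shrinks from over 4% to about 2% of the NR4A sum, and the Egr1 segment grows from 53.1% and 54.7% to 66.4% and 66.3% of the EGR sum.

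Egr1 (ENSMUSG00000038418, chr18:34859823-34864984, plus strand), the best known ERK-driven immediate early factor, moved the other way. It stood at 733 and 760.8 CPM with DMSO and at 1249.5 and 1077 CPM with GSI. Both GSI libraries were higher than both DMSO libraries, although they differed from each other more than the DMSO libraries did. The log2 fold change was 0.64 ± 0.08 (SE, edgeR FDR 2.17e-06), with GSI at 156% of the DMSO level, and ranged from 0.53 to 0.74 when any 1 library was left out.

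Egr2 (ENSMUSG00000037868, chr10:67535475-67542188, plus strand) was close to equal in the 2 groups. It stood at 453 and 447 CPM with DMSO and at 456 and 399.6 CPM with GSI. The lowest and the highest value were both GSI libraries, so the groups overlapped. The log2 fold change was -0.07 with a 95% interval from -0.23 to 0.09 (edgeR FDR 0.477).

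Egr3 (ENSMUSG00000033730, chr14:70077203-70082614, plus strand), a close relative of Egr2 with the same kind of zinc fingers, stood at 47.2 and 38.2 CPM with DMSO and at 29.1 and 19.2 CPM with GSI. The groups did not overlap, but the GSI libraries differed more, relative to their mean, than those of any other of the 10 genes. The log2 fold change was -0.82 ± 0.13 (SE, edgeR FDR 3.68e-05) and ranged from -1.15 to -0.55 when any 1 library was left out. The remaining paralog, Egr4, was barely detected, at 26 and 21 counts under DMSO and only 11 and 8 under GSI. The estimated log2 fold change was -1.28 ± 0.43 (SE, edgeR FDR 0.0222), and the call was lost without DMSO replicate 1 (FDR 0.230) or without GSI replicate 2 (FDR 0.134), and also with DESeq2 (adjusted p 0.143) and with glmTreat against 1.5-fold (FDR 0.255).

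The EGR family therefore did not change as a block. Per length, the EGR genes with Egr4 summed to 308 and 310.0 CPM per kb with DMSO and to 419.7 and 362 CPM per kb with GSI. Egr2 made up 43.3% and 42.4% of this sum with DMSO and 32.0% and 32.5% with GSI, and Egr3 made up 3.48% and 2.80% against 1.57% and 1.20%. In each library the count of Egr1 per count of Egr2 stood at 1.62 and 1.70 under DMSO and at 2.74 and 2.69 under GSI. The balance between the leading genes of both families moved too, as follows from the fall of Nr4a1 and the rise of Egr1. The count of Nr4a1 per count of Egr1 stood at 0.733 and 0.637 under DMSO and at 0.147 and 0.174 under GSI, a 4.27-fold difference between the group means.

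The 2 corepressors of the EGR factors did not follow Egr1. Nab1 (ENSMUSG00000002881, chr1:52457294-52500679, minus strand) stood at 149.6 and 135 CPM with DMSO and at 130.02 and 123 CPM with GSI. The groups were close but did not overlap. The log2 fold change was -0.17 with a 95% interval from -0.32 to -0.01 and missed the threshold after adjustment (edgeR FDR 0.0738). With the replicate number as a block the same gene passed (FDR 0.0271), as it did without DMSO replicate 2 (FDR 0.0449) or without GSI replicate 1 (FDR 0.0453).

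Nab2 (ENSMUSG00000025402, chr10:127660918-127668568, minus strand), the inducible corepressor of the pair, stood at 29.6 and 27.0 CPM with DMSO and at 23.4 and 19.0 CPM with GSI. Both GSI libraries were lower than both DMSO libraries, and the log2 fold change was -0.42 ± 0.10 (SE, edgeR FDR 0.00150). Relative to Egr1, Nab2 was lower still, with 0.0404 and 0.0355 counts per count of Egr1 with DMSO and 0.0188 and 0.0176 with GSI. Nab2 was the only one of the 10 genes whose exons overlap exons on the other strand, with 40 shared bases for Stat6, 151 for Nemp1 and 1050 for the antisense gene Gm16229. Gm16229 itself held 18 and 13 counts under DMSO and only 3 and 1 under GSI, few beside the 1275 and 1533 counts of Nab2 with DMSO and 1133 and 937 with GSI. Stat6 held far more than Nab2, with 11437 and 15432 counts with DMSO and 10196 and 11018 with GSI. Nemp1 held 441 and 538 counts with DMSO and 341 and 403 with GSI. The strand setting of the counting was not given in the sources used here, and a part of these genes in the Nab2 counts was not tested.

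Srf (ENSMUSG00000015605, chr17:46548329-46556175, minus strand), whose protein binds CArG boxes such as those shown above, had replicates that lay close together. It stood at 47.9 and 49.2 CPM with DMSO and at 33.6 and 33.1 CPM with GSI. The groups were clearly apart, and the log2 fold change was -0.54 ± 0.07 (SE, edgeR FDR 5.95e-06), or 68.7% of the DMSO level. Egr1 and Srf thus moved in opposite directions. The count of Srf per count of Egr1, which combines both changes, went from 0.0653 and 0.0647 with DMSO to 0.0269 and 0.0308 with GSI.

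Ier2 (ENSMUSG00000053560, chr8:84661331-84662852, minus strand), an early responder encoded by a single exon, stood at 132 and 141 CPM with DMSO and at 167 and 159 CPM with GSI. Both GSI libraries were higher, by less than for Egr1, with a log2 fold change of 0.25 ± 0.07 (SE, edgeR FDR 0.00679). Without DMSO replicate 1 this call was lost (log2 fold change 0.21, FDR 0.102).

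**Figure D4:**
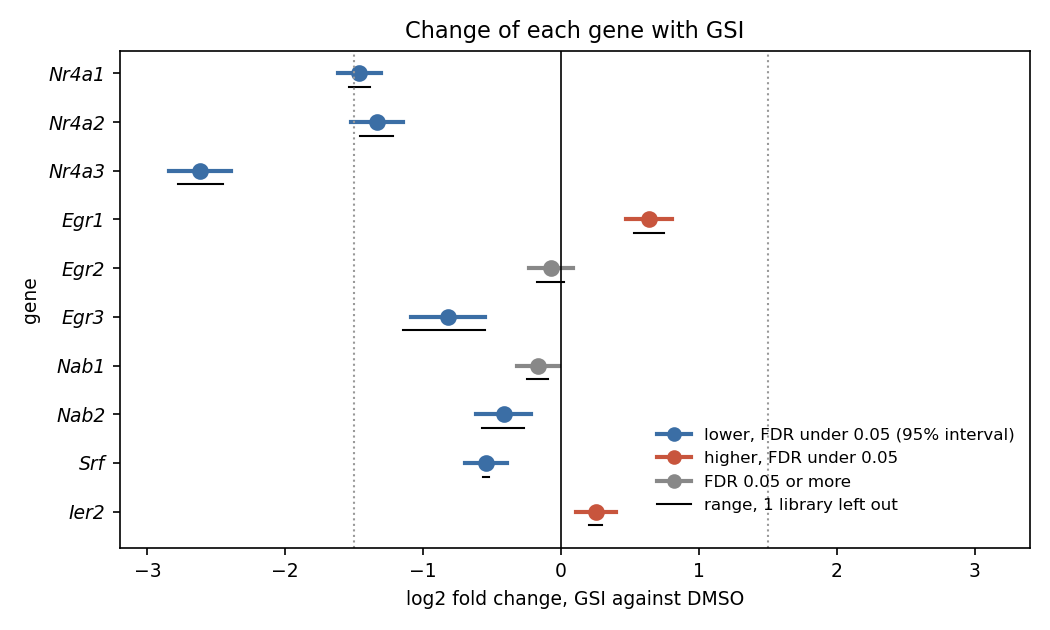
Log2 fold change of GSI against DMSO for each of the 10 genes (x axis), with points and thick bars for the estimate and its 95% interval, coloured by call, and thin black lines for the range when any 1 library was left out. Dotted lines mark a log2 fold change of 1.5 in either direction, beyond which only the Nr4a3 point at -2.62 lies.

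Levels could be set in order once divided by exon length. With DMSO, Egr1 was highest at 164 and 169.7 CPM per kb, followed by Nr4a1 at 153 and 138 and by Egr2 at 133 and 131. Ier2 came next at 86.8 and 92.7 CPM per kb, then Nab1 at 36.5 and 32.9, Srf at 16.5 and 17.0, and Nr4a2 at 16.4 and 14.3. Egr3 at 10.7 and 8.67 CPM per kb and Nab2 at 10.1 and 9.18 overlapped, Srf and Nr4a2 nearly touched, and Nr4a3 was lowest at 8.20 and 6.55. With GSI, Nr4a1 at 52.3 and 53.4 CPM per kb stood below Egr2 at 134 and 118 and below Ier2 at 109.8 and 104. The levels of Nr4a2 at 5.58 and 6.60, Egr3 at 6.60 and 4.36 and Nab2 at 7.97 and 6.45 then overlapped, and Nr4a3 stayed lowest at 1.12 and 1.28 CPM per kb.

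The genes most like each member were sought among 7581 genes with a mean of at least 10 CPM, as the smallest distance between log2 CPM values centred over the 4 libraries. For Nr4a1 these were Zfp36l1, Cenpe and Prc1, at distances of 0.07 to 0.11. Zfp36l1 stood at 244 and 224 CPM with DMSO and at 87.0 and 83.4 CPM with GSI. Nr4a3 had no neighbour as near, the first being Abca1, the cholesterol exporter, at a distance of 0.36, followed by Thbs1 and Fosb. Nr4a2 lay nearest to Sla, Ccna2 and Stap1, Egr1 to Knop1, 1600014C10Rik and 1110038F14Rik, and Srf to Ctbp2, Aff1 and Ccnd1. With 4 libraries in 2 groups such likeness mostly reflects the difference between the groups.

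Other immediate early genes included some that were lower and some that were higher. Of 41 listed genes 40 were tested, of which 13 were lower (21.9% of all tested genes), 6 higher (19.0% of all tested genes) and 21 not past the threshold, with a median log2 fold change of -0.15. Fosb, an AP-1 subunit, fell from 134 and 145 CPM to 27.1 and 33.0 CPM, a log2 fold change of -2.21 (edgeR FDR 2.34e-13). The phosphatase gene Dusp2 (-1.57), Fosl2 (-1.46), which encodes another AP-1 subunit, and the mRNA decay factor gene Zfp36l1 (-1.46) also fell. Of the best known members, Fos was lower by little (-0.19, FDR 0.0378), as was Atf3 (-0.19, FDR 0.0398), whereas Ier3 was higher (0.59). Jun at 0.10 (FDR 0.365), Junb at -0.14 (FDR 0.154) and Ier5 at -0.01 (FDR 0.907) did not pass the threshold.

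Among the listed CREB and cAMP regulators, the genes that passed the threshold were lower, and their bearing on the NR4A genes was not tested. All 17 CREB and cAMP regulators were tested, of which 11 were lower (21.9% of all tested genes), 0 higher (19.0%) and 6 not past the threshold, with a median log2 fold change of -0.29, and DESeq2 also called 0 higher, as did an unadjusted edgeR p under 0.05. The adenylyl cyclase gene Adcy7 fell from 235 and 236 CPM to 120.9 and 131 CPM (-0.90, edgeR FDR 4.03e-09), and its relative Adcy9 fell too (-1.07). The cAMP phosphodiesterase genes Pde4b (-0.61) and Pde4d (-1.78) fell as well, Pde4d from a level near 1 CPM. Pde4d rested on 38 and 61 counts under DMSO and on 8 and 20 under GSI. Its log2 fold change moved to -2.56 without GSI replicate 2 and to -1.28, inside the stricter threshold, without GSI replicate 1. Genes for enzymes that make cAMP and for enzymes that degrade it were thus both among the lower ones. Crem, an inducible member of the CREB family, was at -0.12 (FDR 0.207).

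Among the listed genes of the Ras-ERK-RSK cascade and the SRF cofactors, the calls came close to the background. Their bearing on the EGR or NR4A genes was not tested. Of the 20 genes of the Ras-ERK-RSK cascade 5 were lower, 4 higher and 11 not past the threshold, near the 21.9% and 19.0% of all tested genes, with a median log2 fold change of -0.04. The kinase genes Rps6ka5 (-0.72) and Rps6ka3 (-0.63) fell, and Rps6ka2 (0.46) and Hras (0.35) rose. Map3k8, the kinase that links LPS signaling to ERK, was at 0.06 with a 95% interval from -0.09 to 0.20 (edgeR FDR 0.555). Of 8 SRF cofactors 6 were tested. Elk3 (-0.52) and Mrtfa (-0.37) were lower, Elk4 (0.31) was higher, and Elk1 at -0.07 and Mrtfb at -0.12 did not pass, and with 6 genes these counts were not far from the 21.9% lower and 19.0% higher of all tested genes.

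Actin and MRTF-SRF target genes, which respond to SRF through actin dynamics, numbered 23, of which 17 were tested. Of these, 8 were lower (21.9% of all tested genes), 1 higher (19.0%) and 8 not past the threshold, with a median log2 fold change of -0.19. Cnn2 fell from 17.6 and 18.4 CPM to 9.14 and 8.66 CPM (-1.02), and Filip1l (-0.88) and the actin crosslinker gene Flna (-0.50) fell too. Acta2 was the only one higher (0.99, edgeR FDR 0.0251), at levels under 1 CPM in every library, and the call was lost with DESeq2 and without DMSO replicate 1 or GSI replicate 1.

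Partners through which NR4A and EGR proteins act on chromatin had more lower than higher calls. Of 9 tested NR4A partners and corepressors 4 were lower (21.9% of all tested genes), 0 higher (19.0%) and 5 not past the threshold, with a median log2 fold change of -0.11, and DESeq2 also called 0 higher, as did an unadjusted edgeR p under 0.05. Among them were the corepressor genes Ncor1 (-0.34) and Sin3a (-0.41) and Rxra (-0.44), which encodes the dimer partner of Nr4a1 and Nr4a2. Of 13 subunits of NuRD, the complex that NAB proteins recruit through CHD4, 5 were lower (21.9% of all tested genes), 1 higher (19.0%) and 7 not past the threshold, with a median of -0.15. Mta3 (-0.57), Chd3 (-0.44) and Chd4 (-0.34) fell and Mbd3 (0.38) rose. Hdac1 and Hdac2 belong to both lists.

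**Figure D5:**
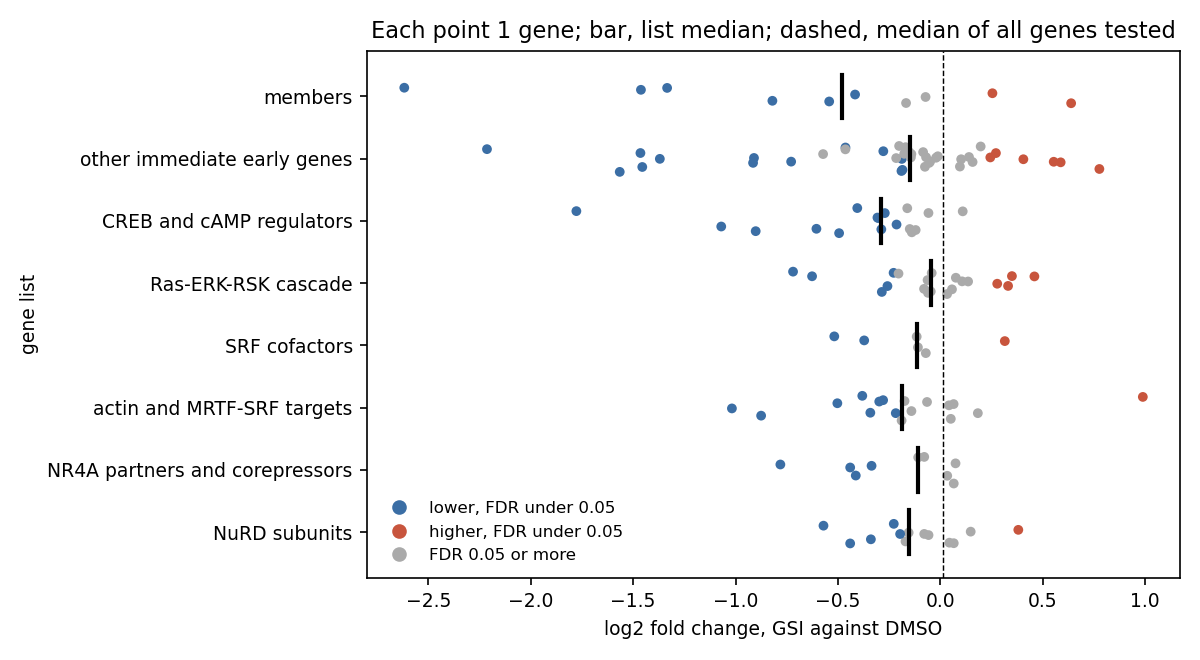
Log2 fold change of GSI against DMSO (x axis) for each tested gene of the 10 members and of 7 other lists (y axis), coloured by call, with a black bar for the list median and a dashed line for the median of all genes tested (0.01). List medians range from -0.48 for the members to -0.04 for the Ras-ERK-RSK cascade, and the CREB and cAMP list is the only one besides the NR4A partners without a red point.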

How the data were processed

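RNA-seq of 2 groups with 2 replicates and 4 columns each was used. The authors made strand-specific poly(A) libraries, trimmed reads with Trimmomatic, aligned them to the mouse genome with STAR (2.5.0a per the labels, which list mm9 and mm10, whereas the methods name mm10) and counted reads with HTSeq, and the deposited values are raw counts per gene and column without normalization. The methods name Entrez Gene as annotation, whereas rows carry Ensembl IDs. HTSeq's strand setting was not given in the sources used here. By the methods, GSI or DMSO was present overnight before activation, whereas figure legends for other assays mention a shorter exposure.

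Titles tied each column to its sample. The 4 columns of a replicate differed by no more than sampling noise (chi-square per degree of freedom 1.01 to 1.03, against 14.7 and 16.6 between replicates of DMSO and of GSI) and were summed, giving 4 libraries. edgeR 4.0.16 (R 4.3.3; glmQLFit, glmQLFTest, TMM, filterByExpr, no covariate) was run on the whole table with Benjamini-Hochberg adjustment over 13211 genes. The SE was the log2 fold change divided by the square root of F. The floor of 3 counts covers counting error only. No list was given a set test.

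The members and lists were chosen with earlier results of these data known. The genes named were all members, Egr4, up to 4 largest called changes per list, some fixed genes (Fos, Fosb, Jun, Junb, Atf3, Ier3, Ier5, Elk1, Elk3, Elk4, Mrtfa, Mrtfb, Map3k8, Crem), overlapping genes on the other strand and the 3 nearest profiles of each member, of which those of 5 members are printed. A gene that this rule gives is not reported here. Mertk, Clec9a, Lck and the markers listed at 0 were named after their values were seen. Positions and exon lengths came from GENCODE M21 (GRCm38), which held 98.8% of the gene IDs, and promoter windows from RefSeq.

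Results were recomputed with DESeq2 1.42.0, with RLE or without normalization factors, unfiltered, with a minimum of 10 counts per library, with replicate numbers as blocks, with 16 runs in place of 4 libraries, with glmTreat against 1.5-fold, without each library in turn, and, for family shares, with other lengths. The scripts were tested on simulated data.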

Additional observations from a re-analysis of the deposited data

How the results depend on the processing

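The log2 fold changes of the 10 members kept their direction under every alternative in which they were called, and Egr2, called under none, ranged from -0.17 to 0.02 with 1 library left out. The cause of the changes below was not tested. Of the members, 6 lower calls became 3 under glmTreat, which tests against 1.5-fold, and 2 higher calls became 0. With 1 library left out the lower calls numbered 6 to 7, the higher calls 1 to 2 (1 without DMSO replicate 1) and the lower calls past both thresholds 1 to 2 (2 without DMSO replicate 2). With the replicate number as a replicate block 7 members were lower, Nab1 being added, and 2 higher, and 6444 in place of 5392 of all genes had an FDR under 0.05. The deviations of same-numbered libraries correlated at 0.184, and with 2 pairs the samples share only a number. The counts of all genes also differed with DESeq2 (4222) and glmTreat (839).

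Under glmTreat the lower calls were 7 for other immediate early genes, 0 for SRF cofactors, 2 for actin and MRTF-SRF targets, 0 for the Ras-ERK-RSK cascade, 3 for CREB and cAMP regulators, 1 for NR4A partners and 0 for NuRD, and the higher calls were 0 in every list. With the 16 runs as separate samples, which treats runs as replicates, other immediate early genes had 21 lower and 10 higher calls, NuRD 8 lower and 2 higher, actin and MRTF-SRF targets 2 higher, and CREB and cAMP regulators 1 higher. The single higher call of the actin list, Acta2, became 0 with DESeq2 and 2 with no filter or with the replicate block, and ranged from 0 to 1 with 1 library left out (0 without DMSO replicate 1 or GSI replicate 1). Its lower calls then ranged from 5 to 7 (5 without DMSO replicate 2), those of the Ras-ERK-RSK cascade from 3 to 5 (3 without DMSO replicate 1) and those of NuRD from 3 to 7 (3 without DMSO replicate 1 or GSI replicate 2). Without division by length the share of the family, GSI minus DMSO, was 2.57 percentage points for Nr4a1, -3.83 for Nr4a3, -9.77 for Egr2 and -0.0274 for Egr4, and with the longest transcript as length it was -1.86 for Nr4a3. With 2 libraries per group the spread within a group rests on 1 difference, which limits how small a change could be called, and Egr4 rests on 8 to 26 counts per library.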
